A study of Mus musculus with 10 samples.

Results

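Gene expression was compared between C3H10 T1/2 cells held static and the same cells under cyclic mechanical strain, over every gene of the deposited count table. The comparison used 3 static control and 3 cyclic strain RNA libraries, 6 of the 10 samples in the series. C3H10 T1/2 is a fibroblast-like line of mouse embryo origin that can enter several mesenchymal lineages, and the labels give its strain as C57BL/6. Cells of both groups were plated at 100000 cells per mL in 2 mL on flexible plates coated with collagen I and grew for 48 h before loading. The strain group was then stretched at 0.5 Hz with 10% elongation for 8 h per day over 3 days, and the control group was not stretched. No transgene, knockout or drug is labelled for either group. Both groups are 1 cell line, so they model fibroblast-like cells in culture and not a tissue. Whether the replicates were separate cultures is not labelled. The p-values therefore rest on the spread among these 6 libraries, some or all of which may be technical. The design text of the series places the comparison in a search for the sensor of biting force.

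The table held 46095 gene symbols, and 15335 passed the filter on low counts and were tested. Library totals lay between 36150738 and 41024689 counts. A gene was called higher or lower at a Benjamini-Hochberg adjusted p under 0.05 in edgeR's quasi-likelihood test. In all, 911 genes were higher (5.94% of those tested) and 1134 were lower (7.39%) under strain, 13.3% together. With scaling by library size alone the split turned, to 1169 higher and 935 lower. The median log2 fold change over all tested genes was 0.0049. Leaving out 1 library gave 369 to 1085 higher and 577 to 1244 lower genes. The lowest counts came without control replicate 1 (369 higher and 610 lower), strain replicate 2 (420 and 661) and strain replicate 3 (404 and 577). Of the tested genes, 5.19% were called with all libraries and again without each library in turn, 2.05% higher and 3.14% lower. Such calls are termed robust below. Control replicate 3 and strain replicate 1 differed most from their own groups, and without both there were 1512 higher and 1614 lower genes. The static and strain libraries did not overlap for 35.3% of all tested genes, and for 2031 of the 2045 called genes. A lack of overlap, where given below for a called gene, therefore adds little to the call.

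Among the called genes 553 changed by at least 1 on the log2 scale, 383 of them lower and 170 higher under strain. The median absolute log2 fold change of the called genes was 0.70. Of 12692 protein-coding genes 875 were higher and 989 lower. Of 1042 long noncoding RNA genes 18 were higher and 52 lower, and of 952 pseudogenes 9 were higher and 63 lower. Of the markers of other cell types, 2 of 5 for leukocytes (Ptprc and Tyrobp), 2 of 5 for endothelium (Cdh5 and Emcn), 1 of 5 for epithelium (Epcam), 2 of 5 for neurons (Rbfox3 and Snap25), 3 of 4 for muscle (Myod1, Myog and Ckm) and 1 of 4 for adipocytes (Lep) were at 0 in all 6 libraries. The summed neuron markers stood at 22.3 to 28.4 CPM in static and 21.2 to 25.1 CPM in strain libraries, and 1 of them, Stmn2, was called lower, from 8.07 ± 2.14 to 3.82 ± 0.0801 CPM (SD, n = 3 each). The summed leukocyte markers stood at 2.64 to 3.56 CPM in static and 3.63 to 4.85 CPM in strain libraries, and the endothelial ones at 0.512 to 0.927 CPM in static and 0.793 to 1.19 CPM in strain libraries. The muscle and adipocyte sums were below 1 CPM in every library, and no leukocyte, endothelial, muscle or adipocyte marker was called. The summed level of the 6 mesenchymal markers was 77220 to 85440 CPM (the usual depth-scaled count, with library sizes adjusted by TMM) in static and 57410 to 68480 CPM in strain libraries, with 3 of the 6 called lower. The 5 epithelial markers summed to 6.4 to 8.49 CPM in static and 1.15 to 2.67 CPM in strain libraries, and 1 of them, Cdh1, was called lower. In bulk RNA fewer cells of a type and less RNA per cell cannot be told apart.

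Cells read stretch through adhesions, the cytoskeleton and ion channels, and the signals reach transcription through cofactors that respond to actin, calcium and phosphorylation. In osteogenic and fibroblast cultures such loading is best known for its effects on matrix, bone and stress genes. The description here turns to families outside those programmes: hormone receptors, growth factors, metal and drug transporters, vitamin A metabolism, the circadian clock and developmental transcription factors.

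A list of lineage, stress and already well-described genes was set aside, and among the other genes whose average log2 CPM reached 2 the largest robust increases were in genes of varied function. Genes set aside included larger ones, such as the organic ion transporter family gene Slc22a23, which had 2.77, 3.34 and 2.08 CPM in static and 11.8, 11.6 and 11.1 CPM in strain libraries, a 4.2-fold rise (log2 fold change 2.07, SE 0.18, edgeR adjusted p = 9.96e-05). Gpr137b, which encodes a multispan membrane protein of the lysosome, lies at chr13:13357620-13393644 (GRCm38.p6, a patch release of the assembly also called mm10, as for all coordinates here). Its values were 24.5, 21.5 and 22.1 CPM in static and 71.3, 68.9 and 75.2 CPM in strain libraries, replicates 1 to 3 in order here and below. The groups were well apart, a 3.16-fold increase (log2 fold change 1.66, SE 0.10, edgeR adjusted p = 1.05e-05). Its near-identical relative Gpr137b-ps was called higher too, by 0.37 on the log2 scale, so reads may be split between the copies and both values are uncertain. Pgbd5, a gene derived from a transposase, went from 13.4 ± 2.08 to 41.2 ± 5.15 CPM (SD, n = 3 each, as for every ± below), a 3.08-fold rise. Gch1, which makes the first intermediate of tetrahydrobiopterin, a cofactor of nitric oxide synthases, rose 2.902-fold, from 2.87 ± 0.623 to 8.35 ± 0.809 CPM. Csgalnact1, which starts chondroitin chains, rose 2.92-fold, and Itgb7, an integrin chain best known from lymphocytes, rose 2.95-fold. Adam23 of the ADAM family and the protein C receptor gene Procr rose 2.64-fold and 2.61-fold. Ces1g, a carboxylesterase with close copies in its gene cluster, rose 3.101-fold, with reads possibly shared. Nsdhl, a sterol synthesis enzyme, was uneven: strain replicate 1 had 11.02 CPM and replicates 2 and 3 had 24.2 and 24.4 CPM, against 6.94 to 8.26 CPM in static libraries. The transporter gene Abcc4 and the growth factor gene Fgf10, described with their families, were also among these increases.

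Within the same limits, each decrease described was bigger than each increase from Gpr137b on. Penk, at chr4:4133536-4138815, encodes the precursor of the enkephalin opioid peptides and was the most abundant of the decreases named here. It stood at 173, 164 and 214 CPM in static and 26.7, 34.3 and 23.1 CPM in strain libraries, a 6.55-fold difference (log2 fold change −2.71, SE 0.16, edgeR adjusted p = 7.92e-06). Plppr3, a neuronal relative of the lipid phosphate phosphatases, fell 5.79-fold, from 87.5 ± 14.2 to 15.1 ± 0.9804 CPM. Gls2, the liver-type glutaminase, fell 6.45-fold, Stc1, the secreted glycoprotein stanniocalcin, 5.196-fold, and the Wnt modulator gene Dkk2 6.21-fold. Trp53i11, a p53-inducible gene, Rgs11, a brake on G protein signals, and Dpf1, a subunit of neuronal chromatin remodellers, fell 6.76-fold, 6.31-fold and 5.84-fold. Mest, an imprinted gene, and Aspn, a small leucine-rich proteoglycan, fell 5.69-fold and 5.46-fold. The epithelial keratin gene Krt19 fell 6.64-fold, with 18.6 to 32.1 CPM in static and 1.99 to 5.55 CPM in strain libraries. Every gene named here among the largest changes was robust and did not overlap between groups, which the choice of genes required.

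**Figure D1:**
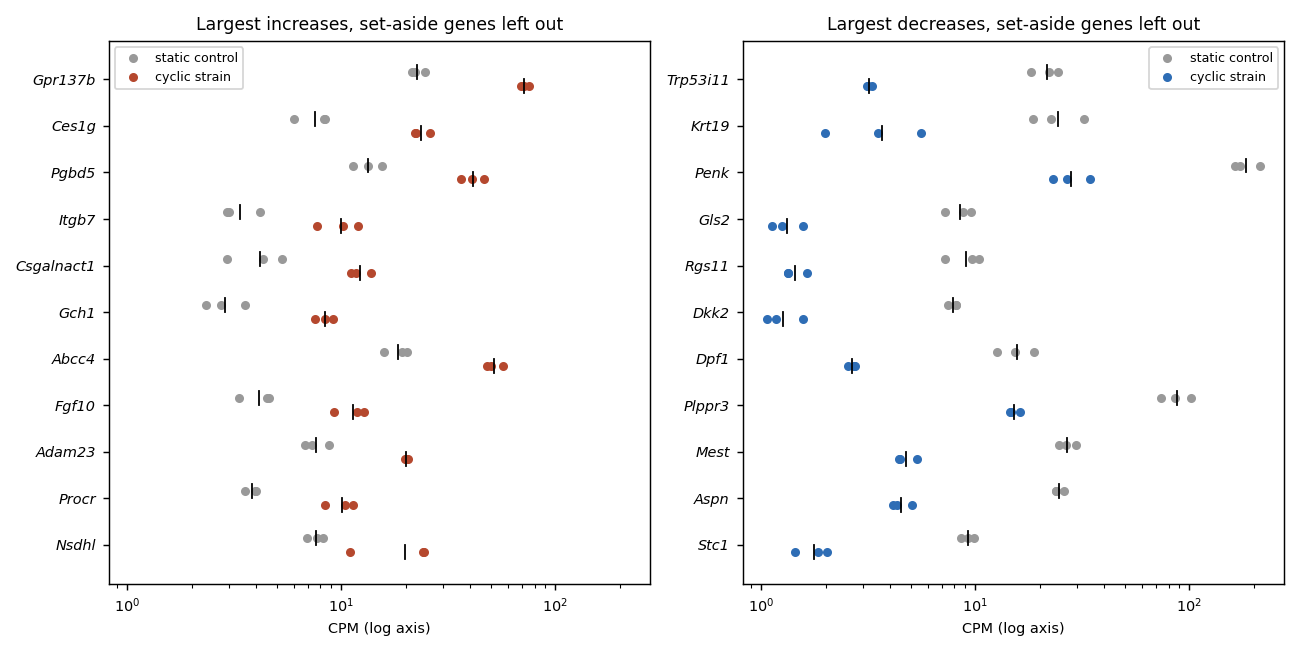
CPM (log axis) of the largest increases and largest decreases, apart from the genes set aside, in each of the 3 static control and 3 cyclic strain libraries. No gene overlaps between groups, which the choice of genes required. Nsdhl has 1 strain library nearer to the static ones, and Penk is the most abundant decrease at 164 to 214 CPM in static cells.

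Families differed widely in how many members were called. Across 53 families with 2136 distinct tested members, 354 members were called. The lists were drawn with earlier results of these data known, so their shares are a description and no test of any family. In 9 families the share was 30% or more, against 13.3% of all genes: retinoid handling (9 of 22), the circadian clock (9 of 23), serpins (9 of 25), zinc transporters (6 of 17), iron, heme and copper handling (13 of 37), monocarboxylate and sugar transporters (8 of 23), annexins and S100 proteins (7 of 21), the PDGF, VEGF and HGF axis (9 of 27), and receptors of amines, purines, lipids and peptides (14 of 42). At the other end were numbered zinc finger proteins (18 of 329), ciliary genes (5 of 90), histone-modifying enzymes (5 of 78), splicing factors (5 of 78), proteasome subunits (3 of 46), TRIM proteins (3 of 43) and the X-linked BEX, TCEAL, MAGED and ARMCX genes (0 of 15). In that last family edgeR gave 1 higher and 1 lower gene at an unadjusted p under 0.05, DESeq2 called 1 and limma-voom 0. The share called also moved with abundance, from 5.39% of genes with an average log2 CPM below 0 to 23.1% of genes at 8 or more, and its part in the family shares was not tested.

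**Figure D2:**
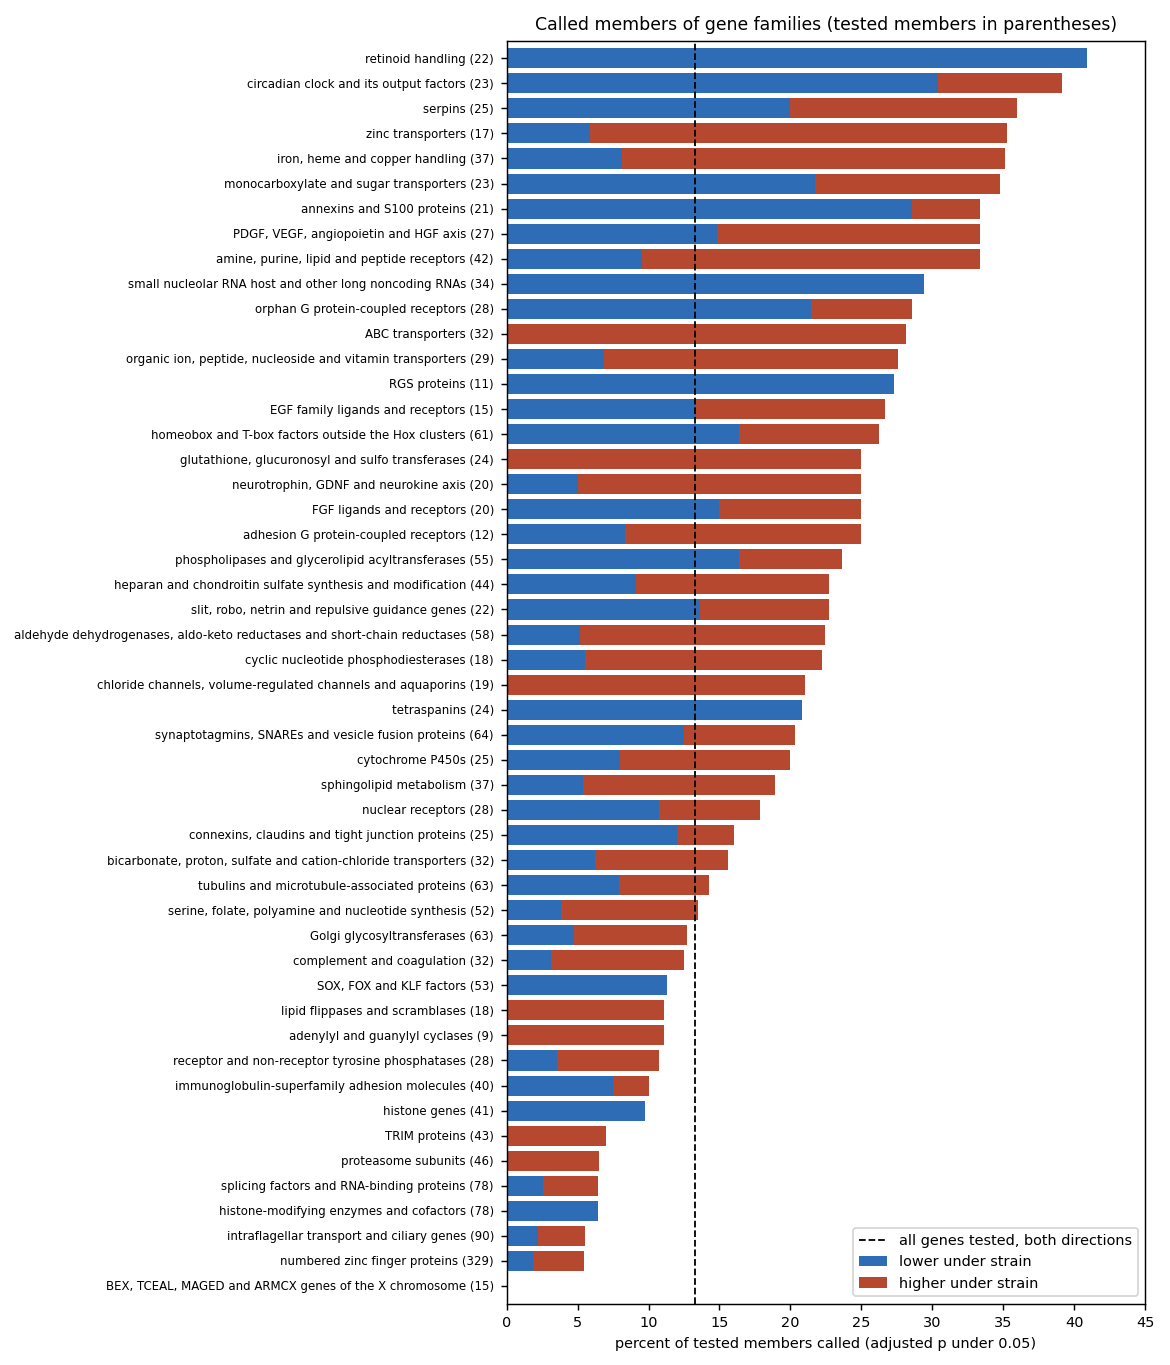
Percent of tested members called lower and called higher under strain in each gene family shown, with the share over all genes tested, 13.3%, drawn as a line. Retinoid handling reaches 40.9%, all of it lower, and the BEX, TCEAL, MAGED and ARMCX family has no called member. The families were drawn with earlier results of these data known.

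Some of the genes that move and convert vitamin A fell. Retinol is taken up through Stra6, carried by retinol-binding proteins, oxidised to retinal and then to retinoic acid, which nuclear receptors read and Cyp26 enzymes destroy. Of 22 tested members 9 were lower and 0 higher (edgeR had 2 higher at an unadjusted p under 0.05, DESeq2 called 1 and limma-voom 1), 40.9% called, with a median log2 fold change of −0.58. Stra6, the membrane receptor for circulating retinol-binding protein, stood at 0.941, 1.21 and 0.796 CPM in static and 0.1201, 0.294 and 0.218 CPM in strain libraries (log2 fold change −2.21, SE 0.44, edgeR adjusted p = 0.00881). Every strain library was below every static one, at low levels. Among the converting enzymes, Dhrs3, which reduces retinal back to retinol, fell 2.16-fold, from 14.3 ± 1.75 to 6.64 ± 0.577 CPM. Aldh1a1, which makes retinoic acid, fell 2.16-fold, from 8.83 ± 0.0981 to 4.101 ± 0.731 CPM. Cyp26b1, which clears retinoic acid, had 6.38, 6.04 and 5.18 CPM in static and 1.73, 3.23 and 2.35 CPM in strain libraries (log2 fold change −1.27, SE 0.24, edgeR adjusted p = 0.00641). Genes of both supply and clearance were thus among those that fell. Of the receptors, Rara fell from 168 ± 9.12 to 114 ± 5.202 CPM and Rarb by 1.18 on the log2 scale, while Rarg (−0.19) and Rxra (0.15) did not pass the test. Rbp4, the circulating carrier, and the cytosolic carrier gene Crabp1 also fell, by 1.39 and 0.83, and these calls and that of Rarb were not robust. The retinaldehyde dehydrogenase gene Aldh1a2 had 1.65 to 2.58 CPM in static and 1.09 to 1.47 CPM in strain libraries and missed the threshold (edgeR adjusted p = 0.093). With 1 library left out 6 to 10 members were lower. The higher and lower counts became 1 and 10 without control replicate 2 and 0 and 7 without both strain replicate 1 and control replicate 3.

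In the circadian clock, several repressors and output factors fell. In this loop the activators CLOCK and BMAL1 (Arntl) drive Per, Cry and Nr1d genes whose products repress them, and output factors pass the rhythm on. Of 23 tested members 7 were lower and 2 higher (39.1% called). Ciart, a repressor of the activator pair, had 17.8, 15.6 and 22.2 CPM in static and 7.97, 6.2 and 8.12 CPM in strain libraries, 2.49-fold apart (log2 fold change −1.32, SE 0.17, edgeR adjusted p = 0.000857). Dbp, an output factor with a strong daily rhythm, had 9.96, 8.57 and 11.6 CPM in static and 6.005, 4.303 and 4.12 CPM in strain libraries (log2 fold change −1.06, SE 0.19, edgeR adjusted p = 0.00506). Both were lower in every strain library than in any static one. The repressor genes Per1 and Cry2 fell by 0.62 and 0.65 on the log2 scale, from 38.8 ± 1.72 to 25.2 ± 2.25 CPM and from 30.2 ± 3.73 to 19.2 ± 0.368 CPM. Tef, a relative of Dbp, fell from 63.5 ± 1.98 to 42.9 ± 3.92 CPM, and Bhlhe41 and Nfil3 fell by 0.43 and 0.41. Nr1d2, a repressor of Arntl, and Arntl2, a paralogue of Arntl, rose by 0.65 and 0.46. These last 4 calls were not robust. The activators did not pass the test: Arntl had 49.7 to 56.5 CPM in static and 49.5 to 55.2 CPM in strain libraries, and Clock had a log2 fold change of 0.33 (edgeR adjusted p = 0.154). Per2, Per3, Cry1 and Nr1d1 were also not called, with log2 fold changes of 0.19, 0.09, 0.15 and 0.20. Counts of higher and lower genes were 1 and 5 without strain replicate 3 or control replicate 1, 1 and 6 without control replicate 3, 1 and 7 without strain replicate 1, 0 and 5 without strain replicate 2, and 2 and 8 without both strain replicate 1 and control replicate 3. The labels give no hour of collection, so a difference in time of day or phase between the groups cannot be told apart from an effect of strain.

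The clock activators bind the E-box, CACGTG, a palindrome that other helix-loop-helix factors such as USF, MYC and the lysosomal regulator TFEB also bind. To show where these letters sit, the 250 bases before the start site are given for 3 clock genes that fell, from RefSeq on GRCm38.p6, 5′ to 3′ on the strand of the gene, with CACGTG in capitals. Ciart (chr3:95882229-95882478, minus strand) had 3 E-boxes, between 116 and 44 bases before the start. Per1 (chr11:69098699-69098948, plus strand) and Tef (chr15:81802423-81802672, plus strand) each had 1, at 166 and 127 bases before the start, in the first of 2 windows listed for each.
Ciart: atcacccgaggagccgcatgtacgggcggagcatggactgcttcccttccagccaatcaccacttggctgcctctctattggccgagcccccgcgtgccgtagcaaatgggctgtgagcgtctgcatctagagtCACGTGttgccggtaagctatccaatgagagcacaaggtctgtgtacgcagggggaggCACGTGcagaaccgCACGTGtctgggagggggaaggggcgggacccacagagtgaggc
Per1: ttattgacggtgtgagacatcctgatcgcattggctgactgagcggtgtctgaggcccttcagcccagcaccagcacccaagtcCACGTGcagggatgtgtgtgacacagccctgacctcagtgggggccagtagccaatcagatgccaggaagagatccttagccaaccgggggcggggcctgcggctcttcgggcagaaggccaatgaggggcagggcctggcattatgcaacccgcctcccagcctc
Tef: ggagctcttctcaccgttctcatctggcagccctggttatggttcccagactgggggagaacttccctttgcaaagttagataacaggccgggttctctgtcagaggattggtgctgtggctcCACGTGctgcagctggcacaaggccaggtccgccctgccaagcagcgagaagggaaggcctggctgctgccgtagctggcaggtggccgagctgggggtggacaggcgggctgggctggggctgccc
The windows of Dbp and Cry2, which fell as well, held 0 of these motifs. A match describes letters only and is not a measured binding site.

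The same letters stood before genes that rose. The 4 examples below were chosen after their values were seen and encode lysosomal proteins: Lamp1, a membrane protein (chr8:13158911-13159160, plus strand), Ctsd, the protease cathepsin D (chr7:142387828-142388077, minus strand), Clcn7, the lysosomal chloride-proton exchanger (chr17:25133141-25133390, plus strand), and Gla, alpha-galactosidase (chrX:134601006-134601255, minus strand). Lamp1 had 4 E-boxes between 61 and 15 bases before the start, and Ctsd and Gla had 2 each. Clcn7 had 1 at 15 bases before the start and 1 more after it, outside the printed stretch.
Lamp1: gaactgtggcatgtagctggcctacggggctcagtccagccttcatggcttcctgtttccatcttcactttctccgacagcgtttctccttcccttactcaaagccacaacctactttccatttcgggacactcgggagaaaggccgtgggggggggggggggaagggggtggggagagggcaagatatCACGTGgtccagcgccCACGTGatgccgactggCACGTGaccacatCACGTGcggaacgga
Ctsd: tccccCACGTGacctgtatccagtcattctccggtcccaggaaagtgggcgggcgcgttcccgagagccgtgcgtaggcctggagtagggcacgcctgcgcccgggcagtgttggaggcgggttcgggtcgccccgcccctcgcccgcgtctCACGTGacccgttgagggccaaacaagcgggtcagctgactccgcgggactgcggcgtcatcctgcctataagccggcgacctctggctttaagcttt
Clcn7: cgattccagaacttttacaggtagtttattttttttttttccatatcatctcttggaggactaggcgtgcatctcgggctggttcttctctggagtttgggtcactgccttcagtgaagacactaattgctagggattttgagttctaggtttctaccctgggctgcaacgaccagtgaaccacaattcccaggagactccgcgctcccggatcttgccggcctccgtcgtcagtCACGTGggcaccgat
Gla: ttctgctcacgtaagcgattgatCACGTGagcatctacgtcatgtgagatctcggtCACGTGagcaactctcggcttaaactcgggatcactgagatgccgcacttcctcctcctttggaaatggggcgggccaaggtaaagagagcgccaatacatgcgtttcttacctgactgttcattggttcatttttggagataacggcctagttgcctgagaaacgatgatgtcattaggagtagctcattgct
Gla had 33.7, 38.6 and 36.5 CPM in static and 95.6, 86.4 and 87.2 CPM in strain libraries, a 2.47-fold rise (log2 fold change 1.31, SE 0.10, edgeR adjusted p = 4.61e-05). Clcn7 rose 1.54-fold, from 83.5 ± 6.79 to 129 ± 4.84 CPM. Lamp1 had 1432, 1445 and 1498 CPM in static and 1952, 1987 and 2126 CPM in strain libraries, and it was no longer called without strain replicate 3 or control replicate 1. Ctsd rose 1.36-fold and was no longer called without strain replicate 3, strain replicate 2, control replicate 2 or control replicate 1.

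The share of promoters with each motif was then counted over 10520 tested genes with a RefSeq window (250 bases before to 50 after the start, first window listed). CACGTG was found in 10.1% of all of them and 7.24% of all 27025 genes of the promoter table. It was in 101 of 671 higher genes (15.1%), 65 of 762 lower genes (8.53%) and 9.88% of genes not called. The longer motif GTCACGTG, which contains the E-box and was searched on both strands, was in 4.17% of tested genes and 2.33% of the promoter table. It stood in 55 of the 671 higher genes (8.197%) and in 15 of the 762 lower genes (1.97%). Among robust calls the shares were 8.597% of 221 higher and 1.77% of 338 lower genes. Without strain replicate 1 they were 6.13% and 2.09%, without control replicate 3 8.415% and 1.74%, and without both 7.29% and 2.69%. The 55 higher genes included Gla, Ptgs2 (cyclooxygenase 2, 1.45 on the log2 scale, the largest), the sterol genes Hsd17b7 and Insig1, the lysosomal genes Sgsh, Mcoln1 and Nagpa, and the autophagy genes Atg3 and Atg7. Of these, the calls of Mcoln1, Atg3 and Atg7 were not robust, and that of Atg3 was lost in all 6 runs that left out 1 library. The 15 lower genes included Ache (acetylcholinesterase, −4.98), Ciart, Khk (ketohexokinase), Rara and the ribosomal genes Rpl13a, Rpl23 and Rpl34. The calls of the ribosomal genes were not robust. The core of the antioxidant response element, TGACNNNGC, was in 15.1% of higher, 14.6% of lower and 14.8% of all tested promoters. The CCAAT box was in 40.8%, 39.1% and 38.7%, and the cyclic AMP element TGACGTCA in 1.49%, 2.49% and 3.25%. The TATA box TATAAA was in 7.45%, 9.84% and 7.11%, and GCGTG, the core bound by the aryl hydrocarbon receptor, in 46.8%, 47.9% and 50.9%, all searched on both strands. These shares are a description with no test, since genes are not independent replicates, and the genes named here were chosen after their values were seen.

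**Figure D3:**
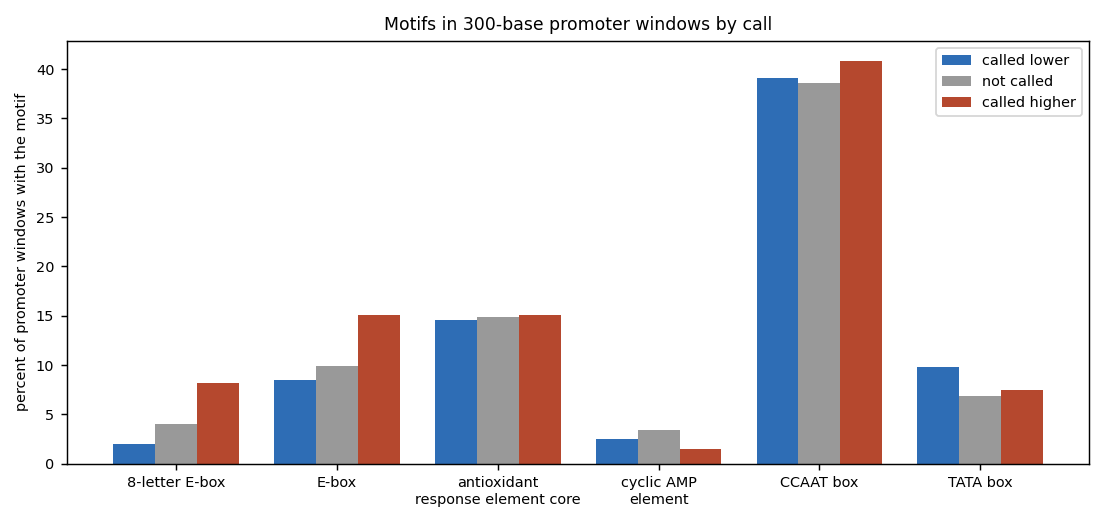
Percent of promoter windows of 300 bases that hold each motif, by whether the gene was called lower, not called or called higher. The 8-letter E-box is in 8.197% of higher and 1.97% of lower genes, while the antioxidant element core is in 14.6% to 15.1% of the 3 sets.

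Genes of iron uptake rose. Cells take up iron with transferrin through the receptor Tfrc, a STEAP reductase reduces it in the endosome, Slc11a2 (DMT1) moves it to the cytosol and ferritin stores it. Of 37 tested genes of iron, heme and copper handling 10 were higher and 3 lower (35.1% called, median log2 fold change 0.25). Tfrc had 52.4, 53.4 and 47.6 CPM in static and 97.03, 103 and 91.9 CPM in strain libraries, a 1.902-fold rise (log2 fold change 0.93, SE 0.10, edgeR adjusted p = 0.000305). Steap3 rose 2.14-fold, from 20.4 ± 1.41 to 43.6 ± 4.79 CPM, and Slc11a2 rose 1.69-fold, from 168 ± 13.4 to 284 ± 34.7 CPM. All 3 genes of this uptake route were higher in every strain library than in any static library, and groups did not overlap for 35.3% of all tested genes. Fth1, the ferritin heavy chain, had 5326, 5381 and 7082 CPM in static and 8210, 7681 and 8648 CPM in strain libraries (log2 fold change 0.46, SE 0.13, edgeR adjusted p = 0.04202). In the 6 runs that left out 1 library its call was kept only without control replicate 3. The light chain gene Ftl1 had a log2 fold change of −0.03 (adjusted p = 0.917), and the iron exporter gene Slc40a1 was not called. The reductase genes Steap1 and Steap2, the heme transporter Slc48a1, the iron-responsive aconitase Aco1, the copper carrier Slc31a2 and the heme synthesis enzyme Cpox rose by 0.37 to 0.61. The next enzyme of heme synthesis, Ppox, fell by 0.59. Of the 10 higher members only 4 were robust, Steap3 and Tfrc among them, and the calls of Slc31a2 and Fth1 were not. The heme oxygenase gene Hmox1 had 225, 216 and 259 CPM in static and 1308, 273 and 318 CPM in strain libraries. Strain replicate 1 was far above the rest, and the gene was not called (adjusted p = 0.07298).

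Other metal genes fell. Tfr2, a second transferrin receptor known as an iron sensor of liver, fell from 31.6 ± 0.935 to 17.6 ± 2.49 CPM (log2 fold change −0.85, SE 0.13, edgeR adjusted p = 0.00209) while Tfrc rose. The copper pump gene Atp7b (chr8:21992783-22060074) had 3.06, 2.92 and 2.73 CPM in static and 0.288, 0.0802 and 0.0969 CPM in strain libraries. Its summed counts were 317 in static and 19 in strain libraries, a ratio of levels of 18.4 (95% exact interval 11.6 to 30.99, counting error only). Its paralogue Atp7a had 22.3 to 35.6 CPM in static and 32.3 to 53.6 CPM in strain libraries and was not called. With libraries left out, higher and lower genes numbered 4 and 3 without strain replicate 3 or control replicate 1 and 14 and 4 without both strain replicate 1 and control replicate 3.

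Zinc transporters included 5 higher and 1 lower of 17 tested (35.3% called, median log2 fold change 0.33). Slc39a6, an importer, had 110.2, 118 and 96.01 CPM in static and 192, 178 and 191 CPM in strain libraries (log2 fold change 0.79, SE 0.10, edgeR adjusted p = 0.00104). Slc30a4, which moves zinc into vesicles, had 92.2, 94.3 and 67.4 CPM in static and 138, 138 and 136 CPM in strain libraries (log2 fold change 0.70, SE 0.13, edgeR adjusted p = 0.00615). Both were higher in all 3 strain libraries than in any static one, and both calls were robust. Slc39a14, Slc39a11 and the exporter Slc30a1 rose by 0.44, 0.43 and 0.37, and Slc39a13, mutated in an inherited connective tissue disease, fell by 0.41. None of these last 4 calls was robust. Higher and lower members numbered 2 and 0 without strain replicate 3, strain replicate 2 or control replicate 1, 3 and 0 without strain replicate 1 or control replicate 3, and 4 and 1 without both strain replicate 1 and control replicate 3. Slc39a7 had 1.28, 0.674 and 6.4 CPM in static and 12.6, 0.481 and 0.388 CPM in strain libraries, with strain replicate 1 far above the other two, and was not called.

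**Figure D4:**
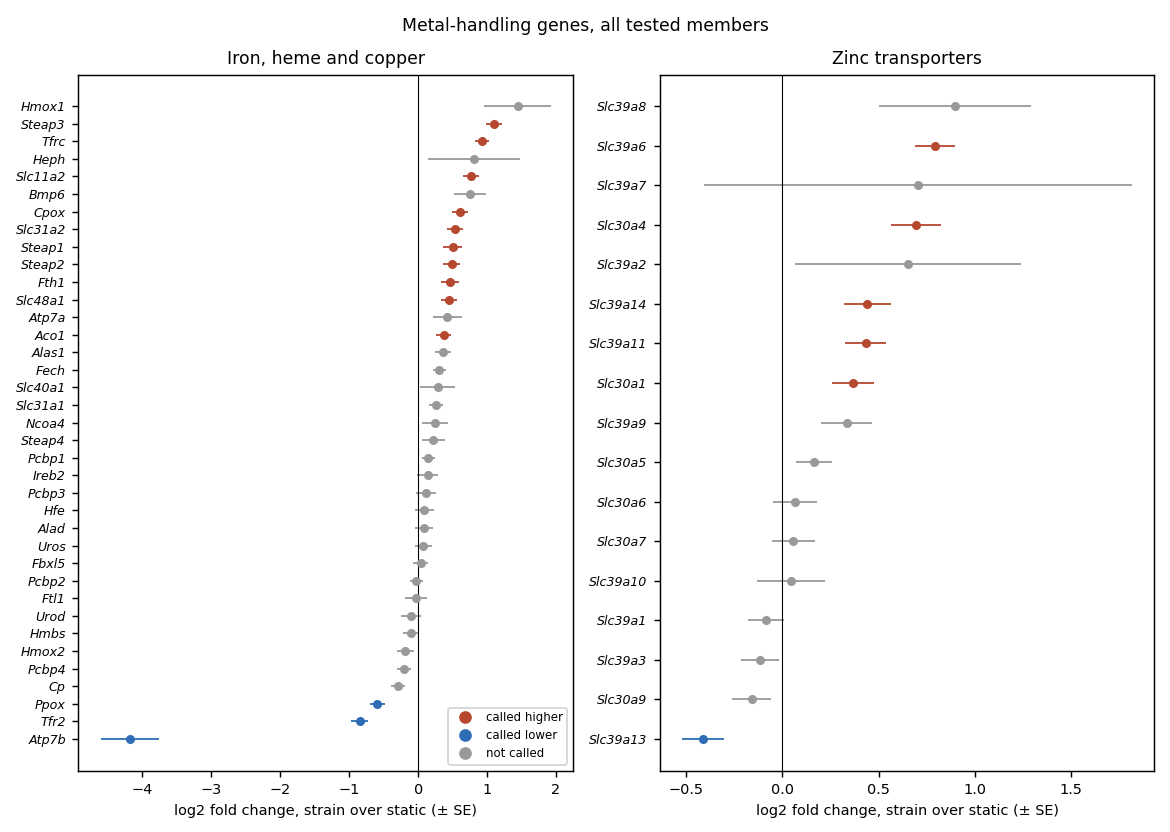
Log2 fold change (strain over static, with the SE of the edgeR fit) of the tested iron, heme and copper genes and the zinc transporters, coloured by call. Steap3, Tfrc and Slc11a2 lie at 1.10, 0.93 and 0.76, Tfr2 and Atp7b at −0.85 and −4.18, and Hmox1 has a wide error and no call.

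Receptors for small ligands and peptides set which hormones and transmitters a cell can answer. Of 42 tested 10 were higher and 4 lower (33.3% called). Of the receptors for gut peptides, Gipr fell close to 0, with 7.19 to 13.2 CPM in static and 0.02402 to 0.0534 CPM in strain libraries, and Glp2r rose. Glp2r, the receptor of glucagon-like peptide 2, had 0.131, 0.421 and 0.228 CPM in static and 2.79, 3.18 and 2.35 CPM in strain libraries, with 28 against 332 summed counts, a ratio of levels of 10.7 (95% exact interval 7.298 to 16.4, counting error only). Both bradykinin receptor genes rose: Bdkrb1, the inducible form, 3.75-fold, from 0.533 ± 0.0807 to 2.01 ± 0.411 CPM, and Bdkrb2, the constitutive form, 2.31-fold, from 1.72 ± 0.434 to 3.98 ± 0.6604 CPM. Npy1r, a neuropeptide Y receptor, had 5.93, 6.18 and 5.38 CPM in static and 15.2, 15.4 and 13.96 CPM in strain libraries (log2 fold change 1.35, SE 0.13, edgeR adjusted p = 0.000176). Its libraries lay close together within each group, and the rise was robust. The melanocortin receptor Mc5r rose by 1.00, Vipr2, a receptor of vasoactive intestinal peptide, by 2.24 from a low level, and the lysophosphatidic acid receptors Lpar1 and Lpar2 by 0.60 and 0.79. The thrombin receptor gene F2r rose by 0.44. Among those that fell, the muscarinic receptor Chrm4 had 5.67, 7.47 and 8.02 CPM in static and 1.68, 1.98 and 1.696 CPM in strain libraries (log2 fold change −1.98, SE 0.20, edgeR adjusted p = 0.000217), and the galanin receptor Galr2 had 138 summed counts in static and 15 in strain libraries. The accessory proteins that set the ligand of the calcitonin receptor-like receptor diverged: Ramp3 rose by 2.01 and Ramp2 fell by 0.98, while the receptor gene Calcrl itself was not called (−0.29). The calls of Bdkrb2, Vipr2, Lpar2, F2r and Ramp2 were not robust. Members called higher and lower numbered 6 and 4 without strain replicate 3 and 12 and 4 without both strain replicate 1 and control replicate 3.

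Orphan receptors, those with no agreed ligand, had 6 lower and 2 higher of 28 tested (28.6% called). Gprc5c fell by 2.12, Gpr162 by 1.58, Gpr35 by 1.10, Gpr146 by 0.91 and Gpr153 by 0.75 on the log2 scale. Gpr35 had 13.98, 14.6 and 15.1 CPM in static and 6.17, 6.89 and 7.32 CPM in strain libraries. These named decreases were robust, with no overlap between groups. Higher and lower calls came to 1 and 6 without strain replicate 1, control replicate 3 or control replicate 1 and 1 and 6 without both strain replicate 1 and control replicate 3. Phosphodiesterases degrade cyclic nucleotides downstream of such receptors, and of 18 tested 3 were higher and 1 lower (22.2% called, median log2 fold change −0.013). Pde8a rose by 0.77 and Pde1b, the 1 lower member, fell by 1.63. The higher and lower phosphodiesterases numbered 1 and 1 without strain replicate 2 and 5 and 2 with DESeq2.

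Growth factor ligands changed in both directions. In the PDGF, VEGF, angiopoietin and HGF families 5 of 27 tested genes were higher and 4 lower. Hgf, a ligand that drives motility and survival through the receptor Met, had 1.097, 1.71 and 0.9103 CPM in static and 4.78, 6.76 and 4.56 CPM in strain libraries (log2 fold change 2.11, SE 0.28, edgeR adjusted p = 0.00104). Met rose as well, 1.61-fold, from 26.5 ± 2.84 to 42.6 ± 5.33 CPM, so ligand and receptor were both higher in every strain library. Kitl, the stem cell factor, rose 2.23-fold, from 13.6 ± 3.32 to 30.4 ± 5.86 CPM, and Nrp1 and Angptl2 rose by 0.50 and 0.50. Pgf, placental growth factor, had 5.62, 4.63 and 4.92 CPM in static and 0.384, 0.588 and 0.485 CPM in strain libraries, 10.4-fold apart (log2 fold change −3.38, SE 0.25, edgeR adjusted p = 3.27e-05). Pdgfb, Angptl6 and Pdgfrl fell by 2.84, 1.07 and 0.82, while Vegfa (−0.05), Pdgfra (−0.03) and Pdgfrb (−0.04) were not called. The higher and lower counts became 3 and 4 without control replicate 1 and 6 and 6 without both strain replicate 1 and control replicate 3.

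Of 20 FGF genes tested 2 were higher and 3 lower. Fgf10, a mesenchymal signal to epithelia, rose 2.72-fold, with 4.599, 4.49 and 3.33 CPM in static and 12.7, 11.9 and 9.28 CPM in strain libraries. Fgf11, which is not secreted, had 4.102, 3.17 and 4.18 CPM in static and 0.865, 0.802 and 0.412 CPM in strain libraries. The feedback inhibitor Spry1 fell by 0.81, Fgf18 by 2.15 and Fgf7 rose by 0.37, the last 2 calls not robust. Counts of higher and lower genes were 1 and 2 without control replicate 3 or control replicate 1, 1 and 3 without strain replicate 2 or strain replicate 1, and 3 and 3 without both strain replicate 1 and control replicate 3. With DESeq2 the counts were 3 and 6.

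In the EGF family 2 of 15 tested genes were higher and 2 lower. Ereg (epiregulin) rose 2.12-fold, from 5.597 ± 1.49 to 11.9 ± 0.618 CPM, and Hbegf, a ligand of the same receptor family, fell 2.16-fold, from 39.4 ± 1.66 to 18.2 ± 1.496 CPM. With libraries left out, higher and lower genes numbered 1 and 1 without strain replicate 3, strain replicate 2, control replicate 3 or control replicate 1 and 3 and 2 without both strain replicate 1 and control replicate 3. Neurotrophin, GDNF and neurokine genes had 4 higher and 1 lower of 20, and the GDNF coreceptors split. Gfra1 had 27.8, 30.5 and 26.1 CPM in static and 52.6, 68.7 and 63.4 CPM in strain libraries (log2 fold change 1.13, SE 0.12, edgeR adjusted p = 0.000344), while Gfra4 fell by 1.00. Gdnf, the ligand of Gfra1, rose by 0.62, a call lost without control replicate 1. Higher and lower members numbered 1 and 1 without control replicate 1 and 5 and 1 without both strain replicate 1 and control replicate 3.

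Several genes of drug and conjugate export rose. Most ABC proteins pump lipids, drugs and conjugates across membranes. Of 32 tested members of the family 9 were higher and 0 lower, 28.1% called, with a median log2 fold change of 0.12. For lower members edgeR had 1 at an unadjusted p under 0.05, DESeq2 called 1 and limma-voom 0. Abcc4, which exports prostaglandins and cyclic nucleotides, had 19.3, 20.3 and 15.8 CPM in static and 57.2, 49.8 and 47.8 CPM in strain libraries, a 2.79-fold rise (log2 fold change 1.48, SE 0.13, edgeR adjusted p = 8.62e-05). The multidrug pump genes Abcb1a and Abcb1b, close copies whose reads may be split, rose by 2.56 and 0.72. Abcb1a was low in static cells, with 0.575, 0.337 and 0.199 CPM in static and 2.26, 2.38 and 2.01 CPM in strain libraries. Abcc1, which exports glutathione conjugates, rose by 0.61, and Abcf2, Abcb10, Abcd2 and Abca8b rose by 0.43 to 0.69. Abcf2 is counted in the family but is not a membrane pump. Of the 9 higher members Abcc4, Abcb1a and Abcf2 were robust, and the others were not. Members called higher and lower numbered 5 and 0 without strain replicate 2, strain replicate 1 or control replicate 3, 3 and 0 without strain replicate 3, and 8 and 1 without both strain replicate 1 and control replicate 3.

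Conjugating enzymes that make such cargo were higher in 6 of 24 cases and lower in 0 (edgeR had 2 lower at an unadjusted p under 0.05, DESeq2 called 1 and limma-voom 0), and each of the 6 was robust. Gsta3, a glutathione transferase with close copies, had 12 summed counts in static and 271 in strain libraries, a ratio of levels of 20.5 (95% exact interval 11.5 to 40.1, counting error only). Gsta4 and the microsomal Mgst1 rose by 0.86 and 0.88. Ugt1a6a, a glucuronosyltransferase, had 11.4, 10.6 and 9.44 CPM in static and 23.5, 27.98 and 24.7 CPM in strain libraries (log2 fold change 1.27, SE 0.13, edgeR adjusted p = 0.000201). Ugt1a6b and Ugt1a7c rose by 1.78 and 1.33, but the Ugt1a genes share their last exons, so the 3 values are not independent. Higher and lower calls came to 6 and 1 without control replicate 2 and 8 and 0 without both strain replicate 1 and control replicate 3.

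Of 58 aldehyde dehydrogenases, aldo-keto reductases and short-chain reductases 10 were higher and 3 lower. Akr1c18, which inactivates progesterone and has close copies, rose 2.59-fold, from 11.2 ± 0.428 to 29.1 ± 2.704 CPM, and Aldh3a1 rose by 0.97. The 3 that fell were Dhrs3 and Aldh1a1, given above, and Rdh5, a retinol dehydrogenase (−1.11), while Rdh13, of the same enzyme class, rose by 0.54. The call of Rdh5 was not robust. Rdh5 and Rdh13 were not among the called members of the retinoid family above, so its counts depend on how that list was drawn. The higher and lower counts became 5 and 2 without control replicate 1, 6 and 2 without strain replicate 2, and 14 and 5 without both strain replicate 1 and control replicate 3.

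Sugar and monocarboxylate carriers had 5 lower and 3 higher of 23. Slc16a3, the lactate exporter of glycolytic cells, had 11.5, 9.298 and 11.6 CPM in static and 5.24, 6.31 and 4.19 CPM in strain libraries (log2 fold change −1.04, SE 0.18, edgeR adjusted p = 0.004198). The glucose transporter genes Slc2a1 and Slc2a8 fell by 0.49 and 0.64, Slc16a6 by 1.37 and Slc50a1 by 0.40. The aromatic amino acid carrier Slc16a10, Slc16a9 and the inositol transporter Slc5a3 rose by 0.66, 0.54 and 0.86. Of these 8 calls Slc16a3, Slc2a8 and Slc16a10 were robust. Counts of higher and lower genes were 1 and 2 without control replicate 1, 1 and 4 without strain replicate 2, 2 and 3 without strain replicate 3, and 4 and 5 without both strain replicate 1 and control replicate 3.

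Among chloride and volume-regulated channels 4 of 19 were higher and 0 lower (edgeR had 0 lower at an unadjusted p under 0.05, DESeq2 called 0 and limma-voom 0). Lrrc8d, a subunit of the volume-regulated anion channel, had 12.02, 11.1 and 9.13 CPM in static and 28.1, 24.6 and 27.9 CPM in strain libraries (log2 fold change 1.32, SE 0.14, edgeR adjusted p = 0.000217), with every strain library above every static one. With libraries left out, higher and lower genes numbered 2 and 0 without strain replicate 3, strain replicate 2 or control replicate 1 and 4 and 1 without both strain replicate 1 and control replicate 3.

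Some cytoskeletal and membrane organisers fell. Cdc42ep3, Cdc42ep5 and Cdc42ep2, of the Borg proteins that bind active Cdc42 and arrange septins and actin, fell by 0.98, 1.04 and 0.75 on the log2 scale, and these calls were robust. The other 2 genes of the group tested, Cdc42ep1 and Cdc42ep4, had log2 fold changes of −0.27 and 0.07 and did not pass the test. This group was picked out after its values were seen. Cdc42ep3 had 66.3, 65.9 and 85.9 CPM in static and 36.9, 34.98 and 39.02 CPM in strain libraries, with control replicate 3 the highest.

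Tetraspanins, which organise membrane microdomains, had 5 lower and 0 higher of 24 (edgeR had 0 higher at an unadjusted p under 0.05, DESeq2 called 0 and limma-voom 0). Tspan18 had 49.4, 47.8 and 47.9 CPM in static and 17.6, 24.2 and 21.1 CPM in strain libraries, and Tspan9 and Tspan7 fell by 0.69 and 0.95. Higher and lower members numbered 1 and 6 without both strain replicate 1 and control replicate 3, and leaving out 1 library moved neither by over 1.5 times. Annexins and S100 proteins, most of which bind calcium, had 6 lower and 1 higher of 21, with a median log2 fold change of −0.40. S100b had 13.2, 13.2 and 20.4 CPM in static and 4.11, 4.62 and 4.46 CPM in strain libraries (log2 fold change −1.83, SE 0.19, edgeR adjusted p = 0.000247), with control replicate 3 the highest. S100a16, S100a7a, S100a13, S100a10 and Anxa6 fell by 0.99, 1.34, 0.72, 0.59 and 0.40, the last 3 calls not robust. Anxa8 was the 1 member that rose, from 20.9, 22.1 and 25.4 CPM to 45.3, 32.95 and 46.4 CPM. Members called higher and lower numbered 1 and 3 without strain replicate 3 or strain replicate 2 and 1 and 8 without both strain replicate 1 and control replicate 3. The counts were 1 and 10 with DESeq2.

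Among vesicle fusion genes 8 of 64 were lower and 5 higher. The priming factor gene Unc13a fell by 1.43, and Syt17 and Vamp2 by 0.75 and 0.49. The membrane SNARE gene Stx3 and the Rab27 effector gene Sytl2 rose by 0.73 and 0.69. Higher and lower calls came to 4 and 4 without control replicate 1, 5 and 5 without control replicate 2, 6 and 5 without control replicate 3, 3 and 3 without strain replicate 2, 2 and 4 without strain replicate 3, and 8 and 9 without both strain replicate 1 and control replicate 3. Of 25 serpins, most of them protease inhibitors, 4 were higher and 5 lower. Serpinb9b, of the intracellular clade B and with close copies, had 14.1, 15.4 and 14.8 CPM in static and 27.04, 22.7 and 27.1 CPM in strain libraries, and it was the 1 robust call of the family. The higher and lower counts became 1 and 0 without control replicate 1, 4 and 1 without control replicate 3, 4 and 2 without strain replicate 1, 2 and 1 without strain replicate 2, 3 and 1 without strain replicate 3, and 7 and 2 without both strain replicate 1 and control replicate 3. The counts were 5 and 2 with scaling by library size alone.

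Developmental transcription factors moved both ways. Of 61 homeobox and T-box genes outside the Hox clusters 6 were higher and 10 lower (26.2% called). The distal-less genes Dlx3, Dlx5 and Dlx6 fell. Dlx3 had 0.5899 to 1.17 CPM in static and 0.0267 to 0.0961 CPM in strain libraries, and Dlx5, an osteoblast and limb regulator, had 14.2, 15.7 and 18.3 CPM in static and 8.19, 10.4 and 7.27 CPM in strain libraries. Dlx6 fell by 1.42, as did its antisense neighbour Dlx6os1 by 1.21, and without the strand of the counting their reads cannot be told apart. Tgif2 fell by 0.89. Tbx18 rose 1.72-fold, from 33.4 ± 1.53 to 57.3 ± 4.02 CPM (log2 fold change 0.78, SE 0.10, edgeR adjusted p = 0.00103). Tbx3 had 12.7, 11.99 and 11.9 CPM in static and 23.2, 23.3 and 20.4 CPM in strain libraries, Mkx, a tendon regulator, rose by 0.56, and Lhx6, Tshz1 and Zfhx2 rose by 0.73, 0.66 and 0.82. All 6 increases were robust. Counts of higher and lower genes were 6 and 6 without strain replicate 3, strain replicate 2 or control replicate 1 and 6 and 12 without both strain replicate 1 and control replicate 3.

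In the SOX, FOX and KLF families 6 of 53 were lower and 0 higher (edgeR had 3 higher at an unadjusted p under 0.05, DESeq2 called 1 and limma-voom 0), a share (11.3%) near that of all genes. Klf2, a factor induced by shear stress in endothelium, fell from 81.6 ± 10.1 to 45.9 ± 7.29 CPM. With libraries left out, higher and lower genes numbered 0 and 2 without strain replicate 3, strain replicate 2, control replicate 3 or control replicate 1, 1 and 8 without strain replicate 1, and 1 and 10 without both strain replicate 1 and control replicate 3. The counts were 0 and 2 with scaling by library size alone.

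Host genes of small nucleolar RNAs and other long noncoding RNAs had 10 lower and 0 higher of 34 (edgeR had 1 higher at an unadjusted p under 0.05, DESeq2 called 1 and limma-voom 0), 29.4% called, with a median log2 fold change of −0.35. Zfas1 had 168, 155 and 219.7 CPM in static and 119.9, 91.7 and 115 CPM in strain libraries (log2 fold change −0.73, SE 0.15, edgeR adjusted p = 0.00971), and Snhg5, Snhg12, Snhg18, Gas5, Snhg1 and Epb41l4aos fell by 0.53 to 0.91. Control replicate 3 was the highest library for each of these 7 genes, and its part in the result was not tested beyond the counts without it. Higher and lower members numbered 0 and 6 without control replicate 1, 0 and 5 without control replicate 3, 1 and 4 without strain replicate 2, 0 and 4 without strain replicate 3, and 0 and 13 without both strain replicate 1 and control replicate 3. With scaling by library size alone the counts were 1 and 8. Of the 41 histone genes tested 4 were lower and 0 higher (edgeR had 1 higher at an unadjusted p under 0.05, DESeq2 called 0 and limma-voom 0), a share (9.76%) below that of all genes. The linker histone gene H1f0 had 354, 329 and 390.3 CPM in static and 191, 204 and 202 CPM in strain libraries (log2 fold change −0.85, SE 0.10, edgeR adjusted p = 0.000556), and the linker variant H1fx fell by 0.84. Members called higher and lower numbered 0 and 2 without control replicate 1 and 0 and 5 without both strain replicate 1 and control replicate 3.

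In absolute level the largest drops, apart from the genes set aside, included Bsg (basigin, a partner of lactate transporters), with 2552, 2350 and 3260 CPM in static and 1218, 1336 and 1420 CPM in strain libraries, 2.05-fold apart (log2 fold change −1.04, SE 0.14, edgeR adjusted p = 0.000954). Vim, the intermediate filament gene vimentin, went from 4807 ± 616 to 3470 ± 362 CPM, and with 1 library left out its call was kept only without control replicate 2. The collagen genes Col3a1, Col6a2, Col6a1 and Col5a1 fell by 0.92, 0.63, 0.45 and 0.48, the last 2 without robust calls. The ribosomal protein genes Rps14 and Rps4x, uncertain because of their many pseudogenes, fell by 0.69 and 0.60, neither call robust. Control replicate 3 was highest for Bsg, Vim, Rps14 and Rps4x, and its part was not tested beyond leaving it out. Among rises, Xdh, the xanthine oxidoreductase of purine breakdown, had 312, 354 and 275 CPM in static and 551, 649.7 and 583 CPM in strain libraries (log2 fold change 0.92, SE 0.12, edgeR adjusted p = 0.00092) and was robust. Aebp1, Ctsb, Sqstm1 and Gpc1 rose by 0.36, 0.41, 0.55 and 0.43, and none of these 4 calls was robust.

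A few genes were close to absent in 1 group at this depth. Trpm2, a cation channel gated by ADP-ribose and oxidants, had 47, 45 and 67 counts in static libraries and 0 in each strain library. Its level was at least 58.5-fold higher in static cells, against a floor of 3 counts over the group. Bmp3 and Sncb, the beta-synuclein gene, had 67 and 58 summed counts in static and 0 in strain libraries, at least 24.6-fold and 21.3-fold higher. Myh7b, a muscle-type myosin, had 295 summed counts against 2, a ratio of levels of 163 (95% exact interval 44.7 to 1350). Lingo3, of a family of leucine-rich neuronal membrane proteins, had 435 against 6, a ratio of 80 (95% exact interval 36.5 to 219) and was chosen after its values were seen. A2m, the protease trap alpha-2-macroglobulin, the Notch target Hey2 and Sbspon had 57, 43 and 76 summed counts in static and 3, 2 and 2 in strain libraries. In the other direction Prl2c3, of a cluster of near-identical proliferin genes, met the same rule, with 3 against 87 counts, a ratio of 26.3 (95% exact interval 8.699 to 129.9). These intervals and bounds cover counting error only, and amplified cDNA without molecular identifiers is not a count of independent molecules. The genes were picked by these same counts, so the ratios and intervals can lean away from 1.

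Called genes also sat side by side. Counting neighbours among tested genes in RefSeq order, 33 runs of 3 or more were called in 1 direction. Of all tested genes 5.94% were called higher and 7.39% lower, and the number of runs in a random gene order was not computed. The longest 5 runs held 4 genes each. The 1 run of higher genes among those 5, chr10:8722217-10558207, held Sash1, Samd5, Stxbp5 and Rab32, with log2 fold changes of 0.39 to 1.18 and no robust call. At chr6:29169230-29290684 Prrt4, Impdh1, Hilpda and Fam71f2 fell by 3.15, 0.54, 1.79 and 2.32, and all 4 calls were robust. Hilpda, a lipid droplet protein, had 47.6, 33.3 and 61.6 CPM in static and 16.4, 12.2 and 12.5 CPM in strain libraries. At chr10:79758515-79820915 Rnf126, Fstl3, Prss57 and Palm fell by 0.76, 1.07, 1.15 and 0.37, and the calls of Prss57 and Palm were not robust. Fstl3, which binds activin, went from 46.8 ± 8.08 to 22.3 ± 0.356 CPM. At chr1:44522564-45349706 Col3a1 fell with Gulp1 and 2 predicted genes, and the calls of Gulp1 and of the predicted gene Gm39635 were not robust. Neighbours can share reads where they overlap, since the strand setting of the counting is not given in the sources used here.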

How the data were processed

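RNA was measured in 3 static control and 3 cyclic strain libraries, made as amplified cDNA with a full-length kit for single cells, per the labels' protocols. The authors deposited raw counts per gene symbol, and the submitters' processing notes name Trim Galore 0.6.5, STAR, HTSeq, DESeq2 and the build mm10. The settings and the strand mode of the counting were not given in the sources used here. Genes that share reads with near-identical copies are therefore uncertain. Library totals were 36150738 to 41024689 counts, without molecular identifiers, so counting intervals cover counting error only.

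Counts were tested with edgeR 4.0.16 in R 4.3.3 (TMM scaling, its expression filter, quasi-likelihood test, Benjamini-Hochberg adjustment at 0.05 over all 15335 tested genes), a procedure that was tested on simulated data. A log2 fold change is strain over static. Alternatives were DESeq2 1.42.0, limma-voom (limma 3.58.1), other scalings and filters, a replicate block and leaving out each library. Exact binomial intervals at 95% were used for ratios of summed counts, and RefSeq tables on GRCm38.p6 gave coordinates and promoters.

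The members and the 53 gene lists were chosen with earlier results of these data known. Named genes were, per list, up to 4 robust, non-overlapping calls of the largest change whose average log2 CPM reached 0 (where none qualified, up to 2 called members). To these were added the 12 largest robust increases and decreases whose average log2 CPM reached 2, outside a list of lineage, stress and already well-described genes, the 8 largest changes in CPM each way, genes with at most 3 summed counts in 1 group and at least 10 in every library of the other, and the longest runs of neighbours. Other members of a list were added to complete the account of a family after their values were seen, as were Gpr137b-ps, Dlx6os1, Cdh1, Stmn2, Gla, Ache and Ptgs2. A few genes and lists are not reported here. The other 4 samples of the series are not analysed here.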

Additional observations from a re-analysis of the deposited data

How the results depend on the processing

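The count of 911 higher genes became 1428 without a filter on low counts (25301 genes tested), and 1512 higher and 1614 lower genes were called without control replicate 3 and strain replicate 1 together, an alternative chosen after seeing the data. With 1 library left out, 369 to 1085 genes were higher and 577 to 1244 lower. Whether the replicate numbers in the labels pair the libraries was not tested. Same-numbered libraries had correlations of their deviations from the group means of 0.0278, 0.208 and 0.0943. Static and strain libraries with different numbers had correlations of −0.187 to 0.0905. A replicate block gave 1557 higher and 1619 lower genes. RLE scaling, library size alone, a filter of 50 counts in 3 libraries, DESeq2 and limma-voom moved neither count by more than 1.5 times. No named gene reversed its direction under any alternative run. Of 192 named genes tested, 23 lost the call without control replicate 1, 23 without strain replicate 2 and 24 without strain replicate 3. The corresponding numbers were 8 without control replicate 2, 8 without control replicate 3 and 11 without strain replicate 1. Most named genes were chosen for keeping their call without each library, so these numbers do not describe all calls. Of the 2045 genes called in all, 796 stayed called without each library in turn. With 2 libraries in a group, the spread is shared with the other group. Genes below the filter and groups of 3 libraries limit what could be called. The cause of these shifts was not tested.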

Other observations

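Lipid enzymes changed in both directions, with 4 of 55 phospholipases and glycerolipid acyltransferases higher and 9 lower. Lipg, endothelial lipase, rose 3.99-fold, from 1.43 ± 0.592 to 5.703 ± 2.13 CPM (SD, n = 3 each). Pla2g4a, the cytosolic phospholipase that frees arachidonic acid, had 26.9, 29.1 and 26 CPM in static and 66.7, 53.3 and 52.95 CPM in strain libraries (log2 fold change 1.08, SE 0.12, edgeR adjusted p = 0.000394). The acyltransferase gene Mboat2 fell by 0.99. Higher and lower calls came to 2 and 4 without control replicate 1, 3 and 3 without strain replicate 2, 3 and 4 without strain replicate 3, and 10 and 7 without both strain replicate 1 and control replicate 3. With scaling by library size alone the counts were 7 and 8, and with DESeq2 they were 9 and 11. Of 44 genes of heparan and chondroitin sulfate synthesis 6 were higher and 4 lower, among them Hs3st1, a heparan sulfate sulfotransferase, with 14.6, 13.2 and 12.2 CPM in static and 19.3, 27.6 and 26.2 CPM in strain libraries. The higher and lower counts became 2 and 0 without strain replicate 3 or control replicate 1, 2 and 1 without strain replicate 2, and 9 and 5 without both strain replicate 1 and control replicate 3. The counts were 10 and 3 with scaling by library size alone and 12 and 5 with DESeq2. Of 40 adhesion molecule genes of the immunoglobulin superfamily 1 was higher and 3 lower, a share (10%) below the 13.3% of all genes. Among them Ncam1 and Mcam fell by 0.67 and 0.79, and Ncam1 had 336, 339 and 313 CPM in static and 203, 208 and 209.7 CPM in strain libraries. Genes called higher and lower in this family numbered 0 and 2 without strain replicate 3, 3 and 5 without both strain replicate 1 and control replicate 3, and 2 and 6 with DESeq2.

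Some genes had 1 library far from the rest of its own group. Txnip, a thioredoxin inhibitor, had 90.3, 93.1 and 83.01 CPM in static and 6.77, 38.7 and 44.9 CPM in strain libraries, and was not called (edgeR adjusted p = 0.0559). Cacng7 had 5.75, 0.309 and 0.626 CPM in static and 0.576, 7.11 and 0.218 CPM in strain libraries, and Dgcr2 had 1.202, 1.24 and 1.14 CPM in static and 1.01, 11.4 and 1.696 CPM in strain libraries. Ppard, a nuclear receptor of fatty acids, was called higher although its groups overlapped, with 0.784, 0.786 and 1.36 CPM in static and 7.35, 0.508 and 11.2 CPM in strain libraries. The genes named here were chosen after their values were seen.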
